A study of Mus musculus with 4 samples.

Results

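RNA of liver mitochondria from mice with non-alcoholic steatohepatitis (NASH) was compared with that from wild-type (WT) mice, with 1 library in each group. The NASH library came from C57BL/6J mice whose genotype label reads wild type-NASH, and the WT library from C57BL/6J mice labelled wild type. Both were taken at postnatal week 7. The labels do not state what brought about the NASH state, the sex of the mice, whether animals were pooled or how the mitochondria were isolated. The series holds 2 further libraries, ob (B6.Cg-Lepob/J) and db (labelled BKS.Cg-Dock7m+/+Leprdb/J), which entered the scaling and are given beside a result where they bear on it. A feature of the deposited table was kept where the NASH or the WT library had 10 or more counts, which left 1864 of 37819 features. Of these, 742 reached the minimum in both libraries, 496 in NASH alone and 626 in WT alone. A feature that passed through 1 library alone tends to differ for that reason, so the counts of features below describe the 2 libraries and have no test.

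The outer surface of liver mitochondria lies against the endoplasmic reticulum and carries ribosomes, and a preparation of mitochondria therefore holds cytoplasmic RNA beside the RNA made from mitochondrial DNA. In healthy liver most messenger RNA belongs to hepatocytes, which make the proteins of blood plasma on the rough endoplasmic reticulum. In steatohepatitis, fat-loaded hepatocytes, recruited macrophages and collagen-producing stellate cells share the tissue, and macrophages that take up lipid switch on genes of the lysosome and of lipid handling. In a fraction of this kind, fewer cells of a type and less RNA per cell cannot be told apart, nor can the carry-over of cytoplasm into the preparation.

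Among features at least 2-fold apart, Gm23935, a 57-base sequence annotated as a microRNA, had the most counts in both libraries. Its sequence is shown here because 3 annotated genes hold it letter for letter and 1 more holds it with 1 mismatch, marked by a capital, and 1 missing base, so that their reads cannot be assigned to 1 place. Sequences are from the GENCODE M21 transcripts (GRCm38, the assembly of mm10), 5′ to 3′ on the gene's own strand.
Gm23935 (chr16:11144125-11144181, plus strand): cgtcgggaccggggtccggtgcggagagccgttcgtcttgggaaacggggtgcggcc
Gm24245 (chr4:139338304-139338360, plus strand): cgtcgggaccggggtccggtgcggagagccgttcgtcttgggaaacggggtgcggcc
Gm24270 (chr9:56223715-56223771, minus strand): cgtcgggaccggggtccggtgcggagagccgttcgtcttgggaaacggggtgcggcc
Gm25911 (chr1:167340369-167340424, minus strand): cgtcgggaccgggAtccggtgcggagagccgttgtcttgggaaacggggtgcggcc

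All 5 features annotated as microRNAs were lower in NASH. Gm23935 had 9036 counts in NASH and 53092 in WT, and was 6.64-fold lower after scaling (exact 95% counting interval 6.50 to 6.79). The identical Gm24245 had 1049 counts in NASH and 8181 in WT, and Gm24270 had 42 in NASH and 254 in WT. The near copy Gm25911 had 644 counts in NASH and 2247 in WT, a smaller difference of 3.94-fold (3.61 to 4.31). Mir5105, on chromosome 5, had 362 counts in NASH and 2289 in WT. The library that stood apart for this sequence was WT: as a share of counts outside the features that resemble mitochondrial DNA (mtDNA) genes, Gm23935 took 6.96% in NASH, 6.68% in ob and 7.45% in db, against 18.1% in WT. The annotation calls these features microRNAs, and the libraries, made from total RNA depleted of ribosomal RNA, do not show that a mature microRNA was present. Which RNA these reads came from was not tested.

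The other sequence set that differed as a family was that of Gm10800. The annotation calls this feature of chromosome 2 protein-coding, and its sequence has near copies on chromosomes 9 and 14. The first 120 bases of 3 copies are shown, with capitals at the 7 bases of each copy that differ from Gm10800, since reads from such a stretch can be counted under several of these names.
Gm10800 (chr2:98666547-98667301, minus strand): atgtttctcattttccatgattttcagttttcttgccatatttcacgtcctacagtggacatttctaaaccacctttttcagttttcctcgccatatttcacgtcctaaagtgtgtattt
Gm10717 (chr9:3025417-3033289, plus strand): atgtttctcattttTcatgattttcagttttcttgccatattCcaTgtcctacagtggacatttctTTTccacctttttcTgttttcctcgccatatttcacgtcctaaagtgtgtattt
Gm10719 (chr9:3017408-3021593, plus strand): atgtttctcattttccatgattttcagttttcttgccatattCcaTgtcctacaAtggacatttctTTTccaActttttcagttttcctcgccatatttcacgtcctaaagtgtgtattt

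Gm10800 had 137 counts in NASH and 2 in WT, 60.6-fold higher (16.5 to 505). The 4 other copies past the minimum that are annotated as protein-coding (Gm10717, Gm10719, Gm10722 and Gm21738, 90.4% to 91.8% identical to Gm10800) had 11 to 13 counts in NASH and 0 in WT. Gm26870, a long intergenic RNA of chromosome 9 whose transcript holds the sequence in the opposite orientation, had 31 counts in NASH and 2 in WT. All of these stood higher in NASH, while ob had 47 and db had 17 counts of Gm10800 in deeper libraries. The sources used here do not state how the counting program treated strand and reads with several places, so these values cannot be assigned to 1 locus. Whether the reads came from messenger RNA of coding genes was not tested.

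The libraries were shallow outside a few features. The totals were 529815 counts in NASH and 627890 in WT, and the 10 features with most counts took 88.3% of NASH and 77.1% of WT counts. The 9 nuclear features that resemble mtDNA genes left 129834 counts in NASH and 293612 in WT for everything else. Levels are given as CPM, counts per 1000000 of a library scaled by trimmed means (TMM), and counts of higher and lower features are of those whose log2(CPM + 1) differed by 1 or more, which is 2-fold. In NASH 353 features (18.9%) were higher and 783 (42.0%) were lower, and the median difference, NASH minus WT, was -0.45. Calls within each list or term below are to be read against these shares. With the further demand that the counting interval of the ratio exclude equality, 218 (11.7%) were higher and 656 (35.2%) lower. Protein-coding features made up 1828 of the 1864, with 347 higher and 772 lower. Lower features had fewer exonic bases in GENCODE, with a median of 3436, against 4718 in higher features and 4821.5 in the rest. These bases are merged over all annotated transcripts of a gene and are not the length of an expressed transcript. Of the 353 higher features, 318 had their highest level of all 4 libraries in NASH, and of the 783 lower ones 610 had their lowest in NASH, against 674 and 695 of all 1864 features. Since higher and lower are set by WT, 1 of the 3 other libraries, these counts are a description. At the edge of the minimum, 221 features had exactly 10 counts in the higher library, with differences of -4.60 to 4.43 and a median of -0.31, and 256 features left out had 9, with a median of -0.01.

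**Figure D1:**
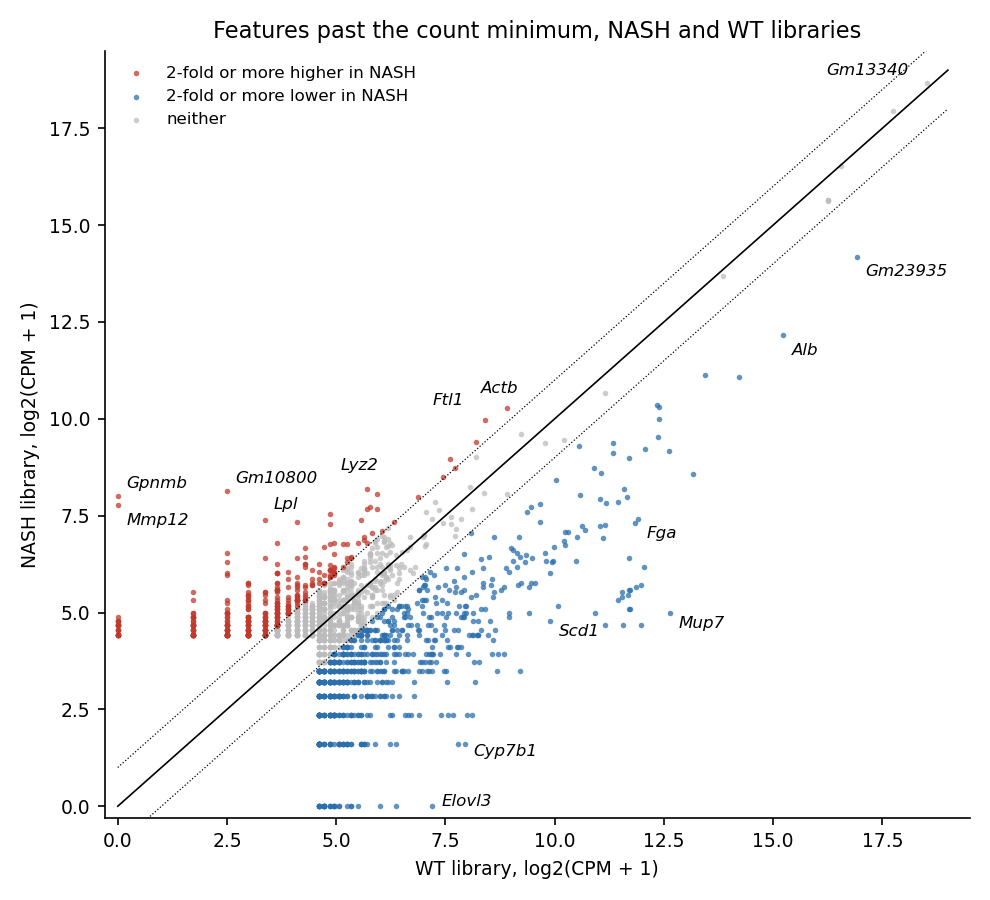
Level of each of the 1864 features in the NASH library (vertical axis) against the WT library (horizontal axis), both as log2(CPM + 1), with equality as a solid line and 2-fold as dotted lines. The lower features reach far higher levels than the higher ones: Gm23935, Alb and the Mup genes lie below the lines at high WT levels, while Gpnmb and Mmp12 lie on the left edge with 0 counts in WT.

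The split between higher and lower rests on the scaling. Each of 7 other scalings raised NASH relative to WT, by 1.17 to 2.56 times, so that features higher under TMM stayed higher under all of them, and a feature less than 2.56-fold lower changed direction under at least 1. Scaling on the totals without the features that resemble mtDNA genes moved ratios the most, by 2.56 times, and gave 893 higher and 373 lower features with a median of 0.86. Under TMM 31.1% of calls were higher, and under the other scalings 37.4% to 70.5% were. The totals without these features are called mtDNA-free totals below, and where they turn or empty the calls of a list, their counts stand beside it. Shares of counts outside the features resembling mtDNA genes are fractions of the same totals. Against TMM, such shares therefore raise NASH relative to WT by the same 2.56 times.

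**Figure D2:**
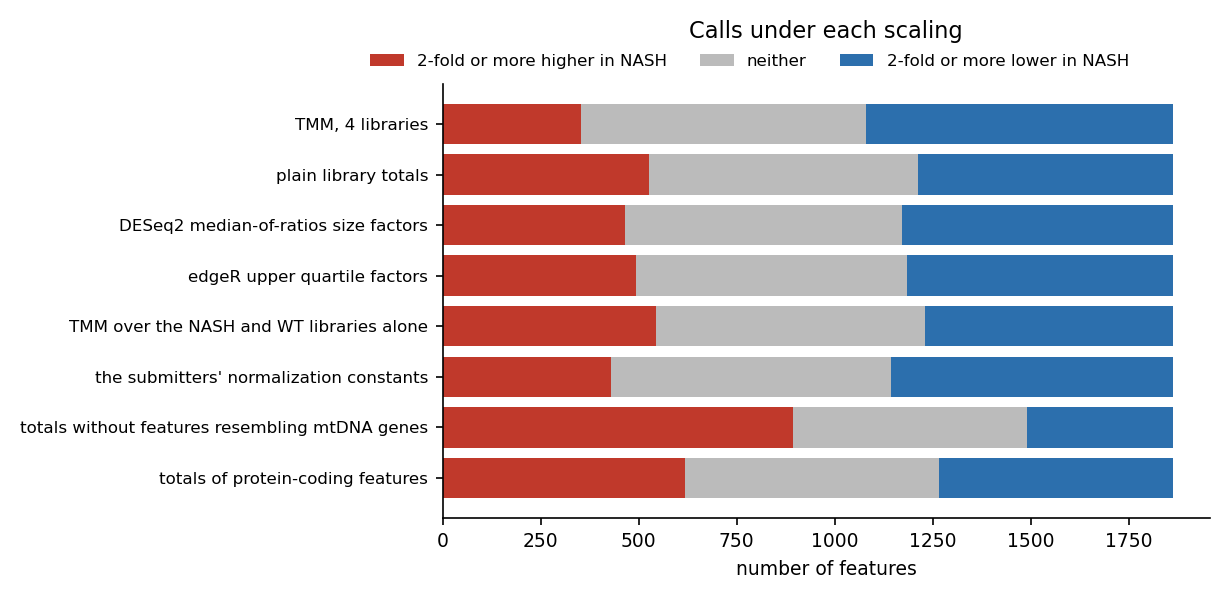
Number of the 1864 features called 2-fold or more higher in NASH (red), neither (grey) and 2-fold or more lower in NASH (blue) under each of 8 scalings, 1 bar each. TMM over the 4 libraries, the scaling used in the text, gives the fewest higher features (353) and the most lower ones (783), and totals without features resembling mtDNA genes the reverse (893 and 373).

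Secreted proteins were lower in a larger share than features as a whole. In the deposited annotation, 148 features carried the Gene Ontology term extracellular region, and 119 of them (80.4%) were lower in NASH and 12 (8.11%) higher, with a median difference of -2.71, against 42.0% lower and a median of -0.45 over all features. For the term endoplasmic reticulum 86 of 129 were lower and 12 higher. For cytosol the numbers were 39 lower and 44 higher of 187, and for nucleus 95 lower and 115 higher of 470. The medians of these last 2 terms were 0.34 and 0.35. For mitochondrion, 63 of 172 were lower (36.6%) and 29 higher (16.9%), with a median of -0.40. These shares lie near the 42.0% and 18.9% of all features. The terms were counted under TMM alone, and mtDNA-free totals raise every NASH ratio by 2.56 times.

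The major urinary proteins (Mup), pheromone carriers that male mice in particular secrete from the liver into urine, showed the lowest values of any list. All 19 Mup features past the minimum, which lie together at chr4:60066469-62150863, were lower, with a median difference of -6.21. Mup7 had 15 counts in NASH and 2732 in WT, 206-fold lower (125 to 368). Mup15 followed with 12 counts in NASH and 1737 in WT, and Mup12 with 12 in NASH and 1315 in WT. The 15 features ranked first among those lower in NASH were all Mup genes, and even the last of them, Mup10, with 35 counts in NASH and 1816 in WT, was 58.7-fold lower (42.0 to 84.5). Mup genes are close copies that share reads, so the family total is the firmer value: summed Mup counts were 0.461% of counts outside the features resembling mtDNA genes in NASH (0.425 to 0.50) and 8.76% in WT (8.66 to 8.87). The same share was 1.34% in ob and 2.21% in db, so that WT stood above all 3 other libraries.

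Clotting factors and their inhibitors were lower without exception, 20 of 20, with a median difference of -3.15. Fga, the fibrinogen alpha chain (chr3:83026153-83033615, plus strand), had 83 counts in NASH and 1646 in WT, 22.4-fold lower (18 to 28.3). The other fibrinogen chains were close to each other: Fgb had 74 counts in NASH and 979 in WT, and Fgg had 73 in NASH and 908 in WT. Proc, the anticoagulant protein C, had 6 counts in NASH and 132 in WT, and Serpind1, heparin cofactor II, had 9 in NASH and 166 in WT. The lowest and the highest difference in the list were -4.53 and -2.56, so every member was lower even under the scaling that raised NASH by 2.56 times.

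Complement and related plasma proteins of hepatocytes were lower in 21 of 21 cases. Mug1, a murinoglobulin that traps proteases, had 77 counts in NASH and 1576 in WT, 23.1-fold lower (18.4 to 29.5). C8a and C9, parts of the membrane attack complex, each had 10 counts in NASH and 131 in WT. Serpina genes, most of which encode protease inhibitors of plasma, were lower in 7 of 7 cases with a median difference of -3.59. Serpina1e had 41 counts in NASH and 1439 in WT, and Serpina3k had 185 in NASH and 3971 in WT. The Serpina1 genes are near copies of each other, and how reads were split among them is uncertain.

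Carrier proteins of plasma were lower in 15 of 15 cases, with a median of -2.86. Alb, serum albumin, was the messenger RNA with most counts in both libraries, with 2225 in NASH and 16453 in WT, 8.36-fold lower (8.0 to 8.74). Ttr, the thyroid hormone and retinol carrier transthyretin, had 68 counts in NASH and 715 in WT, and Vtn, vitronectin, had 73 in NASH and 679 in WT. Acute phase proteins, whose synthesis rises in inflammation, were lower too, 11 of 11, with a median of -2.06. Crp had 10 counts in NASH and 118 in WT, Hpx, the heme carrier hemopexin, had 322 in NASH and 1121 in WT, and Saa4 had 0 in NASH and 12 in WT, at least 4.52-fold lower against a floor of 3 counts. Under the scaling that raised NASH the most, 4 of the 11 acute phase genes were still 2-fold lower and none was higher.

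**Figure D3:**
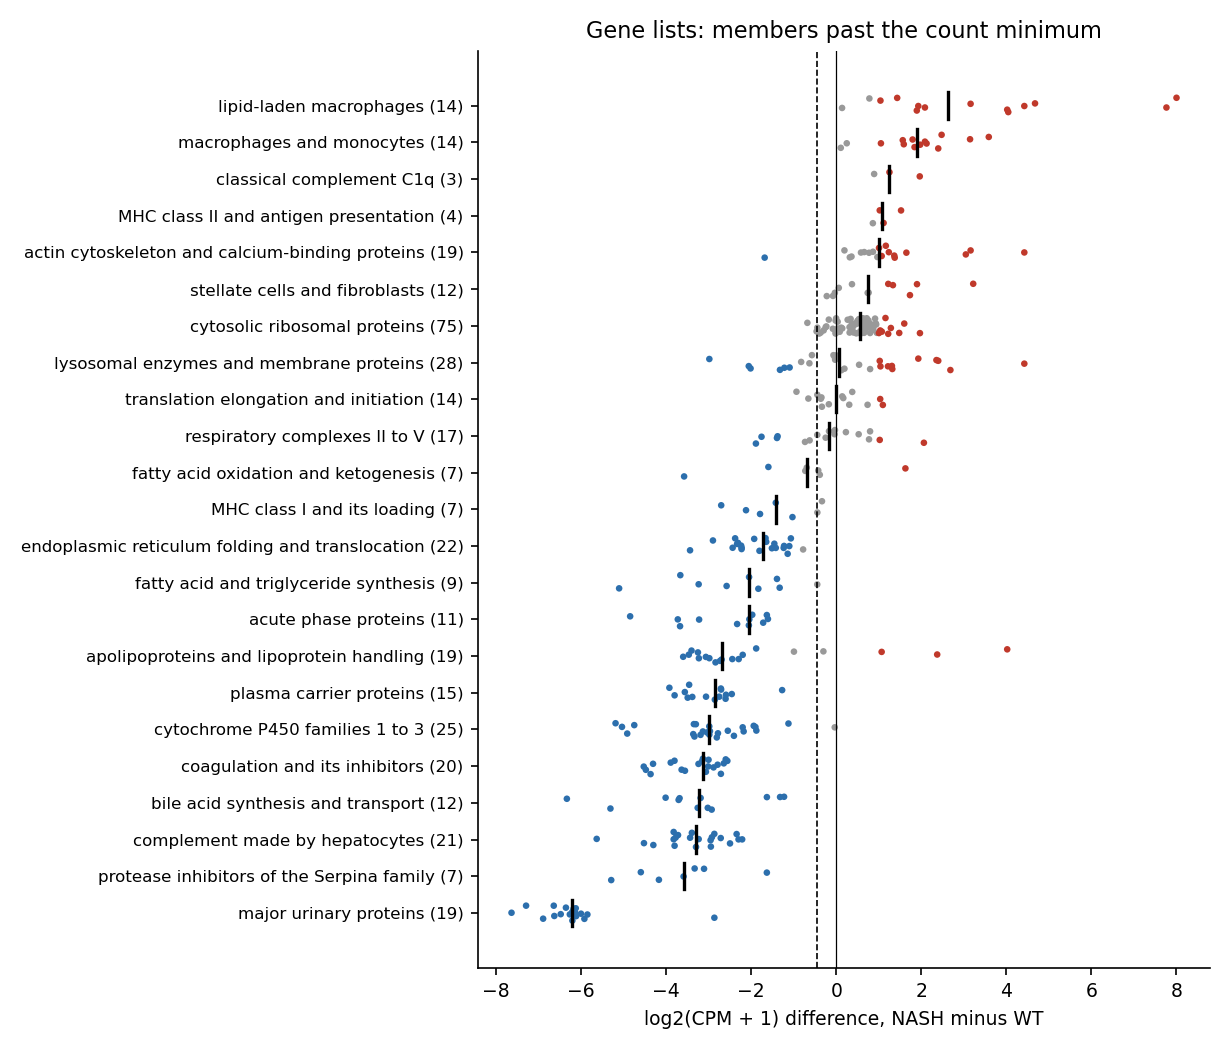
Difference of log2(CPM + 1), NASH minus WT, of the members of 23 gene lists past the count minimum, 1 point per gene, red at 1 or more and blue at -1 or less, with the list median as a black bar, the number of members in parentheses and the median of all features (-0.45) as a dashed line. Macrophage lists lie at the top with medians of 1.91 and 2.62, and the Mup genes at the bottom with a median of -6.21.

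Apolipoproteins and lipoprotein enzymes were divided, with 14 of 19 lower and 3 higher in NASH. Apob, the structural protein of very low density lipoprotein, had 278 counts in NASH and 2726 in WT, 11.1-fold lower (9.79 to 12.6). Apoe, the messenger RNA with most counts after Alb in NASH, had 1098 in NASH and 4766 in WT, 4.91-fold lower (4.59 to 5.24). The 3 members on the other side were Lpl, Apoa4 and Pltp. Lpl, the lipase that frees fatty acids from lipoproteins and is made by macrophages and adipocytes, had 81 counts in NASH and 4 in WT. Apoa4, an apolipoprotein of chylomicrons, had 49 counts in NASH and 8 in WT, 5.42-fold higher (2.54 to 13.2), and had 1906 in ob and 1430 in db. Pltp, the phospholipid transfer protein, had 29 counts in NASH and 12 in WT.

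Enzymes of hepatocyte metabolism that sit in the endoplasmic reticulum were lower as broadly as the secreted proteins. Of the cytochromes P450 of families 1 to 3, 24 of 25 were lower and 0 higher, with a median of -2.99. Cyp2f2 had 17 counts in NASH and 467 in WT, 31.1-fold lower (19.2 to 53.8), and Cyp2e1, which oxidizes ethanol, had 56 in NASH and 514 in WT. Cyp7b1, an oxysterol hydroxylase of the alternative bile acid pathway, had 1 count in NASH and 106 in WT, 120-fold lower (21 to 4777). Of 13 genes that depend on growth hormone in mouse liver, a list that includes Cyp7b1, 12 were lower and 0 higher. Cyp2d9, another member, had 5 counts in NASH and 177 in WT, and Elovl3, a fatty acid elongase, had 0 in NASH and 63 in WT, at least 23.7-fold lower. Members of the Cyp2 families share reads with near copies.

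Transport and conjugation showed the same direction. Genes of bile acid synthesis and transport were lower in 12 of 12 cases, among them the uptake carriers Slco1b2, with 26 counts in NASH and 301 in WT, and Slc10a1, with 5 in NASH and 78 in WT. Of the conjugation enzymes and carboxylesterases, 27 of 36 were lower and 1 higher. Ces3b, a carboxylesterase, had 5 counts in NASH and 256 in WT, 57.9-fold lower (24.5 to 180). The single higher member was Gstm3, a glutathione transferase, with 31 counts in NASH and 5 in WT, 5.48-fold higher (2.11 to 18.1), while its neighbour Gstm1 had 39 in NASH and 25 in WT.

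Of 9 genes of fatty acid and triglyceride synthesis past the minimum, 8 were lower and 0 higher under TMM, and 4 were lower and 0 higher under mtDNA-free totals. Scd1, the stearoyl-CoA desaturase, had 13 counts in NASH and 411 in WT, 35.7-fold lower (20.7 to 67.7), and the elongase Elovl5 had 8 in NASH and 95 in WT. Of 8 genes of cholesterol synthesis, 6 were lower (75%, against 42.0% of all features) and 0 higher under TMM. With mtDNA-free totals 2 were lower and 1 higher. Their share of counts outside the features resembling mtDNA genes was 0.0716% in NASH (0.0578 to 0.0877) and 0.0821% in WT (0.0720 to 0.0931), intervals that overlap, although Sc5d alone had 3 counts in NASH and 47 in WT. In the list of lipid droplets and fatty acid uptake, 4 of 8 were lower (50%, against 42.0% of all features) and 3 higher (37.5%, against 18.9%). With mtDNA-free totals 2 were lower and 3 higher, and the median of the list changed sign between scalings. Cd36, a fatty acid and scavenger receptor, had 76 counts in NASH and 12 in WT, 5.60-fold higher (3.03 to 11.3). Plin2, which coats lipid droplets, had 35 counts in NASH and 8 in WT, 3.87-fold higher (1.76 to 9.66). The hepatocyte fatty acid transporters were on the other side: Slc27a2 had 13 counts in NASH and 131 in WT, and Slc27a5 had 20 in NASH and 165 in WT.

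The protein-folding machinery of the endoplasmic reticulum was lower in 21 of 22 cases, with a median of -1.73. The number lower was 13 to 18 under 6 other scalings and 4 under mtDNA-free totals, where the median was -0.44 and 0 were higher. Its share of counts outside the features resembling mtDNA genes was 0.360% in NASH (0.329 to 0.395) and 0.552% in WT (0.526 to 0.580). Hspa5, the chaperone BiP, had 49 counts in NASH and 220 in WT, 5.08-fold lower (3.71 to 7.07). Hsp90b1 had 47 counts in NASH and 227 in WT, and the disulfide isomerase P4hb had 60 in NASH and 250 in WT. Cytosolic chaperones stood otherwise: Hspa8 had 82 counts in NASH and 63 in WT, 1.15-fold higher (0.819 to 1.63), an interval that includes equality, and Hsp90ab1 had 60 in NASH and 44 in WT. The stress genes Atf3, Ddit3, Fgf21 and Gdf15 stayed under the minimum, with 6, 0, 0 and 0 counts in NASH and 0, 1, 0 and 1 in WT.

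The RNA of signal recognition particle, which ties ribosomes to the endoplasmic reticulum, did not follow the secretory messengers in size. Among its annotated copies, 2 had 25217 and 25213 counts in NASH and 33988 and 33985 in WT, 1.52-fold lower (1.5 to 1.55). That direction turned under mtDNA-free totals alone. These 2 copies had nearly the same counts and cannot be told apart. Many further annotated copies stayed under the minimum. Rn7s6 had 6407 counts in NASH and 6382 in WT. Rpph1, the RNA of ribonuclease P, had 85 in each library, and Rn7sk, which regulates transcription elongation, had 51 in NASH and 56 in WT. Rmrp, the RNA of ribonuclease MRP, had 17 counts in NASH and 37 in WT and was 2.46-fold lower (1.35 to 4.66) under TMM but not under the scaling that raised NASH most.

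Among long non-coding RNAs, 4 passed the minimum. Malat1, a nuclear RNA, had 77 counts in NASH and 75 in WT, 1.10-fold lower (0.790 to 1.53), an interval that includes equality and a direction that turned under other scalings, and 1700020I14Rik had 16 in each. Meg3, an imprinted RNA, had 5 counts in NASH and 20 in WT, 4.52-fold lower (1.65 to 15.4). The other was Gm26870, given above. Of further non-coding types, given here without names, the 1 processed transcript had 7 counts in NASH and 37 in WT, 5.98-fold lower (2.63 to 15.9). The 1 processed pseudogene had 2 counts in NASH and 20 in WT, 11.3-fold lower (2.75 to 99.8). Of 10 features typed as pseudogene, 1 was lower and 0 higher. The 4 U3 small nucleolar RNA genes past the minimum, all on chromosome 11, each had 23 counts in NASH and 5 in WT, 4.07-fold higher (1.51 to 13.7), and since the 4 values were equal they are taken as reads shared among copies.

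The 9 features that resemble mtDNA genes took 75.5% of all counts in NASH and 53.2% in WT and the most abundant of them differed by less than 2-fold under TMM. Gm13340, a pseudogene like mt-Co1, had 204293 counts in NASH and 161934 in WT, 1.12-fold higher (1.11 to 1.12), and Gm20594, like the 16S ribosomal RNA gene, had 123804 in NASH and 94874 in WT, 1.15-fold higher (1.14 to 1.16). Gm13339, like mt-Nd2, had 24644 counts in NASH and 33810 in WT and was 1.55-fold lower (1.53 to 1.58). That direction turned under mtDNA-free totals alone. Among nuclear genes for mitochondrial proteins, few had enough counts. Only Ndufv2 of 37 subunits of complex I in the table passed, with 10 counts in NASH and 6 in WT, and the summed counts of all 37 were 127 in NASH and 138 in WT. Of complexes II to V, 17 of 43 passed. Under TMM 2 of them were higher (11.8%, against 18.9% of all features) and 4 lower (23.5%, against 42.0%). With mtDNA-free totals 10 were higher and 0 lower, and the median of -0.17 under TMM changed sign between scalings. Cox8a, of complex IV, had 11 counts in NASH and 2 in WT, and Uqcrc1, of complex III, had 11 in NASH and 26 in WT. Ucp2, a carrier of the inner membrane, had 56 counts in NASH and 25 in WT and was higher, while Mpc2, of the pyruvate carrier, had 3 in NASH and 12 in WT and was lower. Of the import receptors, Tomm22 had 7 counts in NASH and 15 in WT and Tomm20 had 5 in NASH and 10 in WT, both of which turned under the scaling that raised NASH most.

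Cytosolic ribosomal proteins had small differences, mostly towards higher levels in NASH. Of 75 past the minimum, 9 were higher (12%, against 18.9% of all features) and 0 lower under TMM, the lowest count of higher genes of the 8 scalings. The other scalings gave 19 to 70 higher and 0 lower, and under TMM the median difference was 0.57, positive under all 8 scalings, against -0.45 over all features. Rpl4 had 64 counts in NASH and 24 in WT, 2.36-fold higher (1.45 to 3.94), and Rps29 had 28 in NASH and 6 in WT, 4.13-fold higher (1.68 to 12.2). Rplp0, a subunit of the ribosomal stalk, had 62 counts in NASH and 55 in WT, a ratio at equality. As a share of counts outside the features resembling mtDNA genes, the whole list took 1.64% in NASH (1.57 to 1.71) and 0.468% in WT (0.444 to 0.493). It was 0.237% in ob and 0.252% in db, so NASH stood above all 3 other libraries. The elongation factors were near equality, with Eef1a1 at 379 counts in NASH and 258 in WT, 1.30-fold higher (1.11 to 1.53), and Eef2 at 146 in NASH and 115 in WT, 1.12-fold higher (0.874 to 1.45).

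Genes of macrophages led the higher side. Of 14 macrophage and monocyte markers past the minimum, 12 were higher and 0 lower, and the median difference was 1.91, against 18.9% higher over all features. Of 14 markers of lipid-laden macrophages 12 were higher, with a median of 2.62, which became 1.79 with the genes at 0 counts set to the floor. Gpnmb, a transmembrane glycoprotein of lipid-laden macrophages (chr6:49036518-49058182, plus strand), had 125 counts in NASH and 0 in WT, at least 36.9-fold higher. The elastase gene Mmp12 (chr9:7344381-7369499, plus strand) had 106 counts in NASH and 0 in WT, at least 31.3-fold higher. The other 2 libraries held few: Gpnmb had 7 counts in ob and 0 in db, and Mmp12 had 18 in ob and 2 in db.

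Lpl, named above among the lipases, was 17.9-fold higher (6.73 to 67.3), and Lgals3, the lectin galectin-3, had 45 counts in NASH and 2 in WT, 19.9-fold higher (5.20 to 169). Clec7a, the fungal glucan receptor dectin-1, which the deposited table calls a polymorphic pseudogene, had 54 counts in NASH and 5 in WT, 9.55-fold higher (3.85 to 30.6). Lyz2, lysozyme of myeloid cells, had 141 counts in NASH and 22 in WT, and Mpeg1, a pore-forming protein of phagocytes, had 130 in NASH and 26 in WT. Csf1r, the receptor for macrophage colony-stimulating factor, had 54 in NASH and 13 in WT, and Trem2, a lipid-sensing receptor, had 10 in NASH and 2 in WT, with an interval that includes equality (0.943 to 41.5). The 2 macrophage markers that were neither were Fcgr3, with 11 counts in NASH and 9 in WT, and Mrc1, with 35 in NASH and 26 in WT. All 24 macrophage markers of the table together took 0.487% of counts outside the features resembling mtDNA genes in NASH (0.450 to 0.526), 0.0733% in ob and 0.0550% in db, against 0.0514% in WT (0.0436 to 0.0603).

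**Figure D4:**
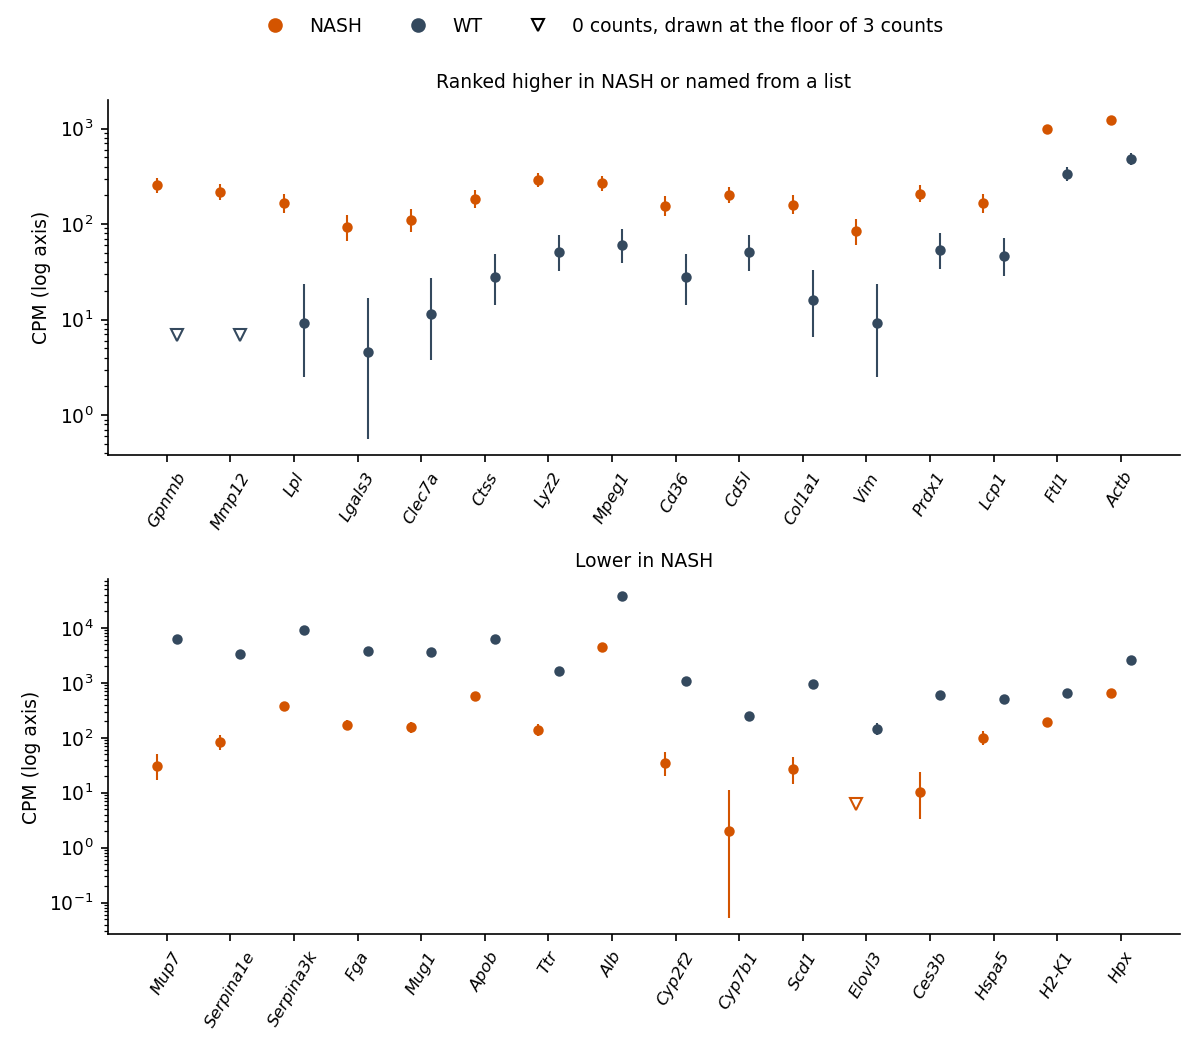
Level in CPM on a log axis of 16 genes higher in NASH (top) and 16 lower in NASH (bottom), with NASH in orange to the left of WT in dark blue, and bars for the exact 95% Poisson counting interval of 1 library. Gpnmb and Mmp12 in WT and Elovl3 in NASH had 0 counts and are drawn as open triangles at the floor of 3 counts.

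Of 6 markers of resident Kupffer cells past the minimum, 2 were higher (33.3%, against 18.9% of all features) and 1 lower (16.7%, against 42.0%) under TMM. With mtDNA-free totals 5 were higher and 1 lower. Their share of counts outside the features resembling mtDNA genes was 0.216% in NASH (0.192 to 0.243) and 0.0770% in WT (0.0673 to 0.0877). Cd5l, a secreted scavenger protein of these cells, had 99 counts in NASH and 22 in WT, 3.98-fold higher (2.49 to 6.64). Clec4f, a lectin of Kupffer cells in mice, had 45 counts in NASH and 26 in WT, 1.53-fold higher (0.924 to 2.59), and Vsig4 had 12 in NASH and 10 in WT, both with intervals that include equality. Marco, a scavenger receptor, had 15 counts in NASH and 6 in WT, 2.21-fold higher (0.811 to 6.96), and Slc40a1, the iron exporter ferroportin, had 93 in NASH and 57 in WT, 1.44-fold higher (1.03 to 2.04). Timd4 had 0 counts in NASH and 1 in WT. The monocyte markers Ccr2 and Ly6c2 had 3 and 0 counts in NASH and 0 and 0 in WT. C6, a complement gene that is also in the list of hepatocyte complement, was the lower member, with 7 counts in NASH and 92 in WT.

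Further immune genes outside the lists, chosen here after their values were seen, were also higher. Itgb2, the beta chain of leukocyte integrins, had 38 counts in NASH and 2 in WT, 16.8-fold higher (4.34 to 144), and Sirpa, a myeloid receptor for CD47, had 41 in NASH and 7 in WT. Spi1, the myeloid transcription factor PU.1, had 16 counts in NASH and 2 in WT, and Irf8 had 13 in NASH and 1 in WT. The engulfment receptors Mertk and Axl had 13 and 37 counts in NASH, against 0 and 10 in WT. Dock2 and Nckap1l, which drive actin polymerization in blood cells, had 26 and 25 counts in NASH, against 3 in WT for each. Of the 8 features annotated with phagocytosis, 6 were higher and 1 lower, against 18.9% and 42.0% of all features. Together these 8 had 110 counts in NASH and 50 in WT, so the calls rest on few counts. Features that passed through NASH alone tend to be called higher, and the tally is a description only. The wider immune terms lay on both sides, with 11 higher and 10 lower of 29 features for inflammatory response and 11 higher and 10 lower of 31 for innate immune response.

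The actin cytoskeleton list, with annexins and thymosins, was higher in 10 of 19 cases (52.6%, against 18.9% of all features). It was lower in 1 (5.26%, against 42.0%). Actb, cytoplasmic actin (chr5:142903115-142906754, minus strand), had 604 counts in NASH and 207 in WT, 2.58-fold higher (2.2 to 3.04). Its share of counts outside the features resembling mtDNA genes was 0.465% in NASH, 0.0280% in ob and 0.0241% in db, against 0.0705% in WT, so that NASH stood above all 3 other libraries. Vim, the intermediate filament vimentin, had 41 counts in NASH and 4 in WT, and Lcp1, the actin bundler of leukocytes, had 81 in NASH and 20 in WT, 3.58-fold higher (2.18 to 6.17). Tmsb4x had 205 counts in NASH and 90 in WT, while its relative Tmsb10 had 6 in NASH and 18 in WT and was the lower member.

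Of 28 lysosomal genes past the minimum, 10 were higher (35.7%, against 18.9% of all features) and 6 lower (21.4%, against 42.0%) under TMM. The other 12 were neither, and the median was 0.06. Under plain library totals 11 were higher and 3 lower, and under mtDNA-free totals 19 were higher and 1 lower, and the median was 1.40. Their share of counts outside the features resembling mtDNA genes was 1.14% in NASH (1.08 to 1.20) and 0.374% in WT (0.352 to 0.396). Ctss, a cysteine protease of antigen-presenting cells (chr3:95526786-95556403, plus strand), had 90 counts in NASH and 12 in WT, 6.63-fold higher (3.62 to 13.3). Psap, the precursor of the saposins that help break down sphingolipids, had 332 counts in NASH and 126 in WT, 2.33-fold higher (1.89 to 2.88), and Npc2, a cholesterol carrier of the lysosome, had 31 in NASH and 5 in WT. Ctsl, another cysteine protease, had 29 counts in NASH and 105 in WT, 4.09-fold lower (2.69 to 6.41). The membrane proteins Lamp2 and Scarb2 were also lower, with 42 and 4 counts in NASH, against 156 and 31 in WT. Lamp1 was 2.15-fold lower (1.38 to 3.42) under TMM, with 32 counts in NASH and 61 in WT, and turned under the scaling that raised NASH most.

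The class II genes of antigen presentation were on the higher side, 3 of 4 (75%, against 18.9% of all features). Cd74, the invariant chain, had 123 counts in NASH and 50 in WT, 2.18-fold higher (1.55 to 3.09). H2-Eb1 had 53 in NASH and 16 in WT, 2.93-fold higher (1.65 to 5.49). Of the class I genes, 5 of 7 were lower (71.4%, against 42.0% of all features) with a median of -1.42 under TMM. With mtDNA-free totals 1 was lower and 1 higher, and the median was -0.09. Their share of counts outside the features resembling mtDNA genes was 0.260% in NASH (0.233 to 0.290) and 0.265% in WT (0.246 to 0.284), intervals that overlap. Among them, H2-K1 had 93 counts in NASH and 286 in WT, 3.48-fold lower (2.74 to 4.44), and H2-Q10, a secreted class I protein of liver, had 28 in NASH and 164 in WT. B2m, the shared light chain, was 2.05-fold lower (1.5 to 2.83), with 64 counts in NASH and 116 in WT, and turned under the scaling that raised NASH most. Class I genes are close copies that can share reads. C1q, the classical complement starter that macrophages make, was higher for 2 of 3 chains, with C1qb at 50 counts in NASH and 11 in WT and C1qa at 33 in NASH and 12 in WT.

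Cytokine messengers were scarce. Of 21 chemokines, cytokines and receptors, 3 passed the minimum: Ccl6, with 30 counts in NASH and 2 in WT, and Cd44, the hyaluronan receptor, with 29 in NASH and 7 in WT, were higher, and Cxcl12 was lower, with 4 in NASH and 26 in WT. Tnf, Ccl2, Cxcl1 and Cxcl10 had 0 counts in both libraries. Irf7, an interferon-responsive transcription factor, had 12 counts in NASH and 5 in WT, with an interval that includes equality (0.696 to 7.69).

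Of 12 markers of stellate cells and fibroblasts past the minimum, 5 were higher (41.7%, against 18.9% of all features) and 0 lower under TMM. The other 7 were neither, and collagen genes were among the higher ones. Under mtDNA-free totals 12 were higher and 0 lower. Col1a1, the main chain of fibrillar collagen, had 78 counts in NASH and 7 in WT, 9.86-fold higher (4.56 to 25.3), and had 85 in ob and 44 in db. Col3a1 had 99 counts in NASH and 26 in WT, 3.37-fold higher (2.17 to 5.41), and Col1a2 had 35 in NASH and 13 in WT. The proteoglycan Dcn had 46 counts in NASH and 39 in WT and Reln had 30 in NASH and 28 in WT, both near equality. Acta2, the smooth muscle actin of activated stellate cells, had 0 counts in NASH and 5 in WT, and Timp1 had 0 in both. All 26 markers together took 0.390% of counts outside the features resembling mtDNA genes in NASH (0.357 to 0.425) and 0.0858% in WT (0.0756 to 0.0971).

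Iron and antioxidant genes lay on both sides. Of 7 genes of metallothioneins and iron, 2 were higher (28.6%, against 18.9% of all features) and 4 lower (57.1%, against 42.0%) under TMM. With mtDNA-free totals 3 were higher and 1 lower. The median of that list changed sign between scalings. Of 16 genes of glutathione, peroxide and superoxide defence 5 were higher (31.2%, against 18.9% of all features) and 6 lower (37.5%, against 42.0%). Under mtDNA-free totals 9 of the 16 were higher and 3 lower. The ferritin chains, which store iron, were higher: Ftl1 had 488 counts in NASH and 145 in WT, 2.98-fold higher (2.47 to 3.61), and Fth1 had 242 in NASH and 83 in WT, 2.58-fold higher (2.0 to 3.35). Tfr2, the iron sensor of hepatocytes, had 8 counts in NASH and 93 in WT, 13.1-fold lower (6.40 to 31.3). Prdx1, a cytosolic peroxiredoxin, had 102 counts in NASH and 23 in WT, 3.92-fold higher (2.48 to 6.46), and Hmox1, heme oxygenase, had 42 in NASH and 17 in WT, 2.19-fold higher (1.22 to 4.09). Prdx6 had 1 count in NASH and 21 in WT, and Prdx4, the peroxiredoxin of the endoplasmic reticulum, had 0 in NASH and 11 in WT, at least 4.14-fold lower. Selenop, the secreted selenium carrier, had 102 counts in NASH and 302 in WT.

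Of 8 genes of amino acid and urea metabolism past the minimum, 4 were lower (50%, against 42.0% of all features) and 0 higher under TMM, but 0 were lower and 4 higher under mtDNA-free totals. Cps1, the first enzyme of the urea cycle, had 23 counts in NASH and 58 in WT, 2.85-fold lower (1.73 to 4.84). Ass1, a later step of that cycle, had 30 in NASH and 33 in WT, near equality, and Glul, glutamine synthetase, had 70 in NASH and 31 in WT, 2.0-fold higher (1.29 to 3.16) and just under the call. Glucose handling had 2 higher (15.4%, against 18.9% of all features) and 4 lower (30.8%, against 42.0%) of 13 under TMM. With mtDNA-free totals 6 were higher and 1 lower. Slc2a2, the hepatocyte glucose transporter, had 9 counts in NASH and 65 in WT, 8.16-fold lower (4.05 to 18.6), whereas Pgd, of the pentose phosphate pathway, had 21 in NASH and 3 in WT, 6.19-fold higher (1.85 to 32.4). In fatty acid oxidation, Cyp4a10 had 4 counts in NASH and 47 in WT and was lower, Hsd17b4 had 15 in NASH and 4 in WT and was higher, and 4 of 7 members were neither. The median of that list was -0.69 under TMM and 0.64 under mtDNA-free totals.

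**Figure D5:**
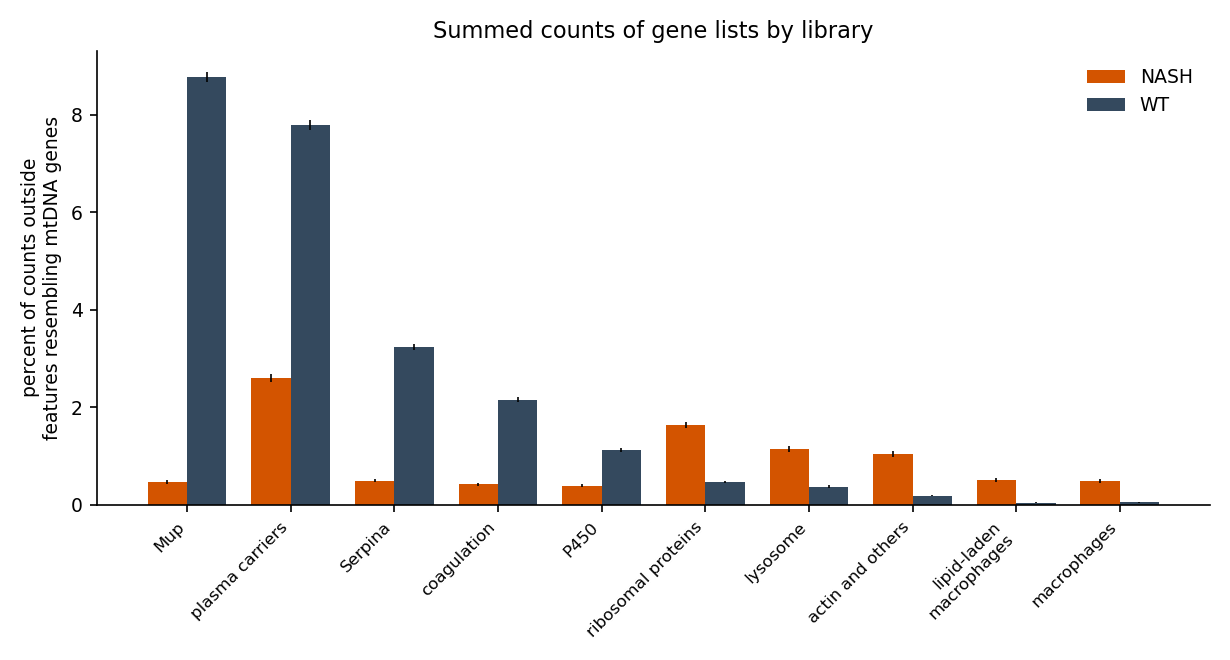
Summed counts of 10 gene lists as a percent of the counts outside the features that resemble mtDNA genes, with NASH in orange to the left of WT in dark blue and exact 95% binomial intervals. Such shares amount to scaling on mtDNA-free totals, the scaling that raised NASH the most. The 5 hepatocyte lists take smaller shares in NASH (Mup 0.461% against 8.76% in WT), and the other 5 lists larger ones (lipid-laden macrophage markers 0.509% against 0.0392% in WT).

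Other cell types left few counts. Erythroid genes were lower in 4 of 4 cases, with Hbb-bs at 2 counts in NASH and 23 in WT, and these globin genes share reads. No marker of neutrophils, T and NK cells, B and plasma cells, cholangiocytes, platelets, adipocytes, mesothelium or pancreas passed the minimum. The summed counts were 7 in NASH and 3 in WT for 10 neutrophil markers, 9 in NASH and 1 in WT for 15 T and NK cell markers, and 8 in each for 11 B and plasma cell markers. Cd3d, Cd79a, Krt7, Krt19, Epcam and Mpo had 0 counts in both. Endothelial markers had 84 raw counts in NASH and 91 in WT. Of 6 past the minimum 2 were lower (33.3%, against 42.0% of all features) and 0 higher under TMM, but 0 were lower and 2 higher under mtDNA-free totals, where the median of -0.87 became 0.43. Of the hepatocyte markers, 14 of 16 were lower and 0 higher, and the whole list took 2.80% of counts outside the features resembling mtDNA genes in NASH (2.71 to 2.89), 9.30% in ob and 19.7% in db, against 8.84% in WT (8.74 to 8.94). The hepatocyte and macrophage marker shares moved with the lists of hepatocyte and macrophage genes above. A gene can stand in both kinds of list, so this is no separate result. The part of the markers in the lists' values was not tested.

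The 250 bases before and 50 after annotated gene starts were searched for the letters GAGGAAGT, a core that PU.1, the product of Spi1, binds, on both strands (RefSeq promoters, GRCm38.p6, 1430 members matched). It was 1 of 6 motifs searched. The letters occurred in 5.62% of 267 higher members, 2.35% of 595 lower members, 4.05% of 568 members that were neither and 3.69% of 27025 genes with a promoter in the table, and a match is a description only. The lysosomal gene motif GTCACGTG occurred in 5.24% of higher, 4.37% of lower and 5.46% of the other members, so that higher members did not stand above the rest, and in 2.55% of all genes of the table. The E-box TCATGTGA occurred in 1.5% of higher, 1.18% of lower and 1.06% of the other members, and in 1.15% of all genes. For TATAAA the shares were 13.9% of higher, 15.1% of lower and 9.86% of the other members, and 15.7% of all genes. The HNF4 letters CAAAGTCCA occurred in 0.375% of higher, 1.51% of lower and 0.352% of the other members, and in 0.555% of all genes. The HNF1 palindrome occurred in 0 of 267 higher, 3 of 595 lower and 0 of 568 other members, and in 20 of 27025 genes. No promoter of the 10 matched genes of the macrophage and monocyte list held GAGGAAGT. They were found near Ctss and Mmp12, shown here because both are among the features ranked first on the higher side, with the match, which lies on the opposite strand, in capitals. Lyz2 had none in this window. For Mmp12 the upstream one of the table's 2 starts is shown, and the window of the other start (chr9:7347124-7347423) held no match.
Ctss (chr3:95526536-95526835, plus strand): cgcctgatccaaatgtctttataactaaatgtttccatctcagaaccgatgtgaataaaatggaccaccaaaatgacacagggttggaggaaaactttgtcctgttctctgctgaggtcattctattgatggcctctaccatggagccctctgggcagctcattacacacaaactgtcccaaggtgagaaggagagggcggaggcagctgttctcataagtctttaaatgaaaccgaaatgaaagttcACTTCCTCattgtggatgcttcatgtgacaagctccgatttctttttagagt
Mmp12 (chr9:7344147-7344446, plus strand): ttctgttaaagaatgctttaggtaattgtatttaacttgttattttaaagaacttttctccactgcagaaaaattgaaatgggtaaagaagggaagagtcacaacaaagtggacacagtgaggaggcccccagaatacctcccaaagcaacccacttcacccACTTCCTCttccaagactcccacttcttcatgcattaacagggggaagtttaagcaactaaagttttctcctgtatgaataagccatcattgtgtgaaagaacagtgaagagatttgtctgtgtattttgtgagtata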

How the data were processed

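Total RNA of liver mitochondria was sequenced, per the labels' protocols, after ribosomal RNA depletion with a kit that keeps the strand. The submitters' processing notes name bcl2fastq 2.20, Trimmomatic 0.32, TopHat2 2.1.1, Bowtie2 2.3.2 and build mm10. The sources used here do not state the counting program, its annotation or its strand setting. The authors deposited raw expected counts per feature, per the file headers, and TMM-normalized log2 values, which served here only as an alternative scaling. Expected counts were rounded to whole counts. TMM factors (edgeR 4.0.16, R 4.3.3) over the 4 libraries were 0.921 in NASH and 0.687 in WT. DESeq2 1.42.0 gave size factors as an alternative scaling, and BLAST 2.17.0 found the features resembling mtDNA genes. Names came from GENCODE M21 by feature ID, which 1853 of 1864 features matched.

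Each group has 1 library, so differences lack any replicate check and no p-value is given. Folds are ratios of scaled counts. Their 95% intervals, and those of shares, are exact (Clopper-Pearson) and hold counting error alone, since PCR reads are not independent molecules. Against 0 counts a fold is a lower bound from a floor of 3 counts per library, 6.15 CPM in NASH and 6.95 CPM in WT. Named features were ranked by the interval bound nearest to equality: the first 15 per direction of those with 50 or more counts, 5 per direction in each non-coding type, the 10 with most counts in each library, up to 5 per direction of each of 56 gene lists, and 10 with little difference (under 1.25-fold). Axl, Dcn, Dock2, Fcgr3, Irf8, Itgb2, Mertk, Mrc1, Nckap1l, Sirpa, Spi1, Trem2, 1700020I14Rik, the copies of Gm10800 and the genes under the minimum were named after their values were seen. The members and the lists were chosen with earlier results of these data known. The calculation was tested on simulated libraries with a shared composition, in which as many features were raised as lowered. The NASH and WT libraries differ in composition, so that test does not bear on the choice of scaling.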

Additional observations from a re-analysis of the deposited data

How the results depend on the processing

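No paired analysis was possible because each group had 1 library, and for the same reason no replicate could be left out. Against 353 higher and 783 lower features and a median of -0.45, the median was -0.043 under plain library totals, -0.19 under DESeq2 size factors, -0.13 under upper quartile factors and -0.23 under the submitters' constants. TMM over NASH and WT alone gave 543 higher features and a median of -0.021, totals of protein-coding features 618 and 0.12, and totals without features resembling mtDNA genes 893 higher, 373 lower and 0.86. A minimum of 1 count gave 3612 higher, 4254 lower and a median of -0.12. A minimum of 20 counts gave 119, 419 and -1.28, one of 50 counts 33, 226 and -2.71, and 10 counts in any of the 4 libraries 1088, 1700 and -0.14. With an interval that excludes equality 218 were higher, and 4-fold differences were 116 higher and 457 lower. Under totals without features resembling mtDNA genes, B2m was at 0.32, Eno1 at 0.32, Gpx4 at 0.31, Kdr at 0.17, Lamp1 at 0.24, Mat1a at 0.017, Rmrp at 0.055, Sord at 0.039, Tomm20 at 0.17, Tomm22 at 0.076 and Trf at 0.081, all negative under TMM. These signs turned because that setting raises every NASH ratio. Of 4175 recomputed values of 293 named features, 3748 stayed within their counting interval and 416 left it without a change of sign. No other called value of a named feature changed sign under the alternatives run. Depth limits all features near 10 counts, where 1 read more or less can change a call.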
